A study of Mus musculus with 6 samples.

Results

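The matrix metalloproteinases (MMPs), the ADAMTS proteases and the tissue inhibitors of metalloproteinases (TIMPs) were followed in sorted cells of a mouse lung tumour. The members are the genes whose array symbol is Mmp or Adamts with a number, or Timp1 to Timp4, taken from probe sets (groups of short probes against 1 transcript) assigned to a single gene. They came to 37 of 18193 measured genes, with 18 MMPs, 15 ADAMTS proteases and 4 TIMPs on 70 probe sets, and each gene is given by its brightest probe set over all 6 arrays unless another is named.

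The CD133 high and the CD133 low fraction were sorted by flow cytometry from tumours that 344SQ cells had formed under the skin, and 3 arrays were made of each. Both fractions carry the same origin: 344SQ is a single lung adenocarcinoma line, taken from a KrasLA1/+; p53R172HdelG/+ mouse, which spreads widely in syngeneic hosts. Untreated or treated status, age, sex, the sorting gates and any pooling of animals are not stated in the labels. Whether arrays of the same fraction stem from different animals or sorts is not stated either, so p-values reflect array-to-array spread that may be technical. With 3 arrays a fraction, every value has limited precision.

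MMPs are zinc-dependent enzymes that cut collagens, laminins, proteoglycans and many non-matrix proteins, and they are made as inactive proenzymes. Some are secreted and some are held on the cell membrane, and in tumours both the cancer cells and the surrounding fibroblasts, macrophages and neutrophils make them. ADAMTS proteases are secreted relatives with thrombospondin repeats, several of which cut the large proteoglycans aggrecan and versican. TIMPs bind the active sites of these enzymes, and the balance of protease and inhibitor sets how fast matrix is turned over.

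The labels and the arrays were checked first. Prom1, which encodes CD133, stood at 6.80, 6.63 and 6.40 on the log2 scale in the CD133 high arrays, against 5.49, 5.92 and 6.05 in the CD133 low arrays. Its arrays did not overlap, but the difference of 0.79 (SE 0.26, limma, adjusted p = 0.297) did not pass a threshold of 0.05. The epithelial genes Cdh1 and Krt8 averaged 12.40 and 12.79 in the CD133 high fraction and 12.34 and 12.39 in the CD133 low fraction. Of the 12 epithelial genes 6 differences were positive and 6 negative, with Cldn7, Cldn4 and Krt18 at −0.73, −0.42 and −0.42, and Grhl2 and Tjp3 at 0.86 and 0.63. The splicing regulator Esrp1 was listed at 0 on 5 of the 6 arrays. Transcripts of other cells were bright in both fractions, with the summed level of 12 macrophage markers at 16.09 to 16.22 and 16.09 to 16.18, and that of 12 fibroblast markers at 16.06 to 16.39 and 16.09 to 16.16, in CD133 high and CD133 low arrays (log2 of the summed linear values). Such sums follow their brightest genes. Of the 12 fibroblast markers 9 differences were positive and 3 negative, with Thy1 at −1.16 without overlap (limma, adjusted p = 0.281). Without CD133 high replicate 1, 4 of the 12 rose and 1 fell (limma, adjusted p under 0.05), beside 11.7% and 14.6% of all genes. Of the T and natural killer cell markers 5 of 10 fell with all arrays and of the B-cell markers 3 of 7 (limma, adjusted p under 0.05), where 0.231% of all genes were lower. Of the mast cell markers 0 of 8 passed. At an unadjusted p under 0.05, 1 of these 8 was higher and 6 lower, where 8.3% and 9.94% of all genes were. The B-cell gene Fcrla and the mast cell gene Ms4a2 had differences of 1.42 and 1.36. Of the 10 T and natural killer cell markers 8 differences were negative and 2 positive, Cd8a at 0.31 and the dim Cd4 at 0.44. Cd8b1 differed by −2.42, opposite to Cd8a. The summed T and natural killer cell markers stood at 10.67 to 10.98 in the CD133 high and 12.51 to 12.95 in the CD133 low arrays, B-cell markers at 10.82 to 12.42 and 12.42 to 12.74, and mast cell markers at 11.58 to 12.52 and 12.93 to 13.17. In such bulk samples fewer cells of a type and less RNA per cell cannot be told apart. The CD133 high arrays did not form 1 group: across probe sets, replicate 1 had a mean Spearman rho of 0.931 with the other CD133 high arrays and of 0.973 with the CD133 low arrays. Replicates 2 and 3 carried brighter bacterial hybridisation controls, at 11.29 and 11.04, against 10.38 in CD133 high replicate 1 and 10.19 to 10.51 in the CD133 low arrays. Their Gapdh signal at the 3' end exceeded that in the middle by 0.44 and 0.46, against −0.13 in CD133 high replicate 1 and −0.09 to −0.07 in the CD133 low arrays. The part of these technical differences in the results was not tested, and values without CD133 high replicate 1 are given beside those with all arrays for most of the members and lists described. The CD133 high arrays that remain without replicate 1 all carry these technical differences. In those values the fraction and the technical differences cannot be told apart.

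Across the whole array 0.022% of the genes were higher and 0.231% lower in the CD133 high fraction at an adjusted p under 0.05 (limma, Benjamini-Hochberg over 45037 probe sets), and 0 of the 37 protease and inhibitor genes were among them. At an unadjusted p under 0.05, 7 members were higher and 4 lower, where 8.3% and 9.94% of all genes were. The members' arrays did not overlap between the fractions in 5 genes that were higher and 4 that were lower, against 10.8% and 12.8% of all genes. The median difference of the members was 0.11, and 0.0013 over all genes, of which 9112 had a positive and 9061 a negative difference. Without CD133 high replicate 1, 8 of the 37 members rose and 5 fell at an adjusted p under 0.05, beside 11.7% and 14.6% of all genes. The members' share was thus 35.1% against 26.3% over the array. Here an effect of the fraction cannot be told apart from the technical differences given above. Array weights, which lower the influence of arrays far from their group, let 9 members pass, 7 of them higher and 2 lower, beside 5.91% and 7.69% of all genes. CD133 high replicate 1 had a weight of 0.248, against 0.756 and 1 in replicates 2 and 3 and 1.35 to 2.67 in the CD133 low arrays. The weighted fit thus leans towards the one without replicate 1, and the technical differences cannot be told apart from the fraction there either.

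**Figure D1:**
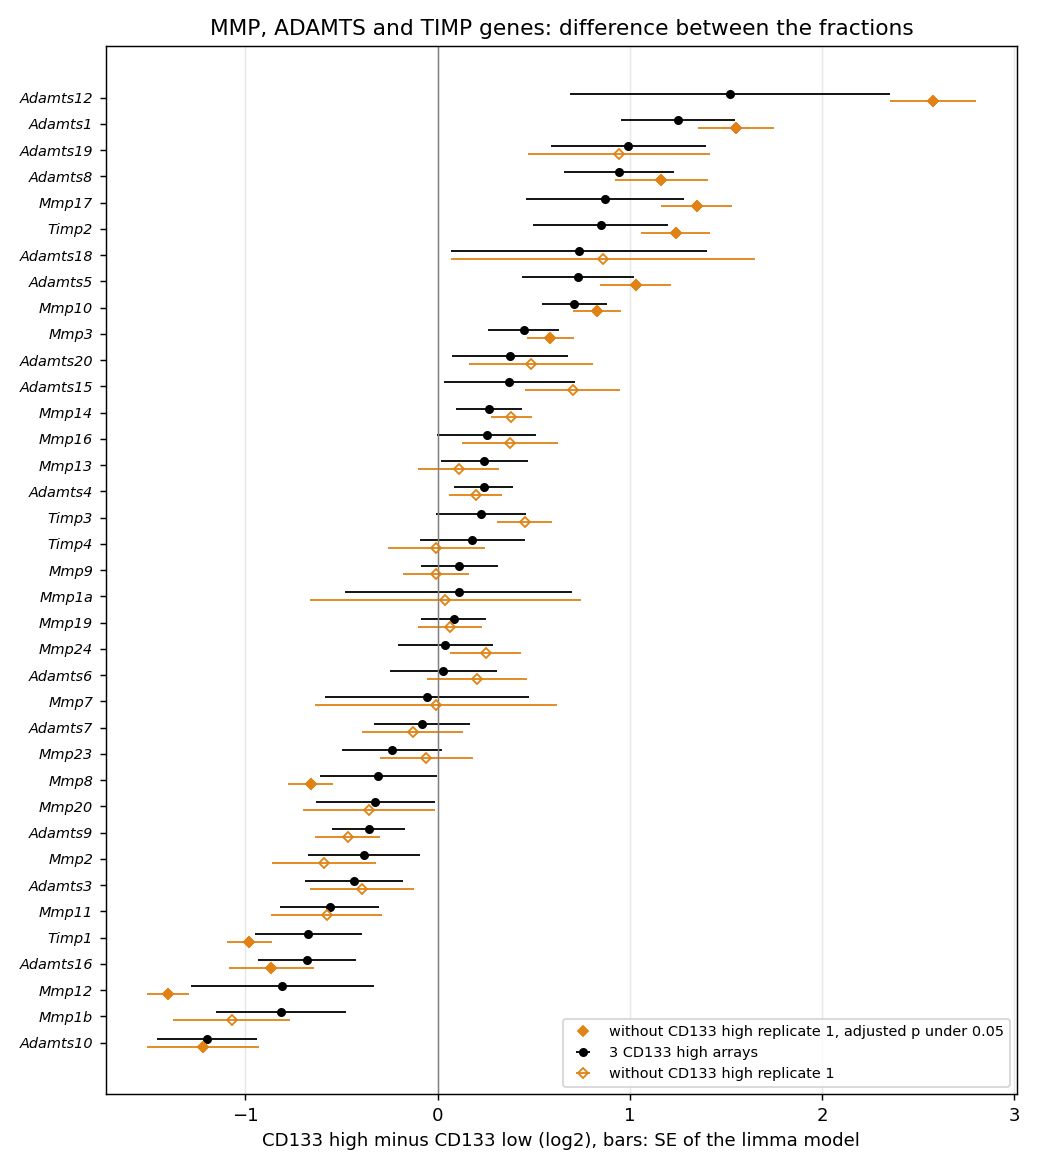
Differences between the CD133 high and CD133 low fractions of all 37 members (horizontal axis, log2, CD133 high minus CD133 low), ordered by size, with bars for the standard error of the limma model. Black circles use all 3 CD133 high arrays, where no adjusted p was under 0.05, and orange diamonds leave out CD133 high replicate 1, where the 13 filled ones passed. Adamts12 stands at 1.52 with all arrays and at 2.58 without replicate 1, and Mmp12 at −0.81 and −1.40.

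The levels of the members spanned most of the range of the array, with mean log2 values from 4.04 to 12.69. In all, 13 members lay above the 90th percentile of probe sets, and these included Mmp14, Mmp3, Timp2, Timp1, Mmp9, Mmp2, Mmp12 and Mmp13. At the other end Mmp1a and Adamts18 averaged below 5 in both fractions, close to the lower quartile of 4.89 to 5.16 of the arrays. Levels of different genes come from different probes and are not compared beyond this description.

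**Figure D2:**
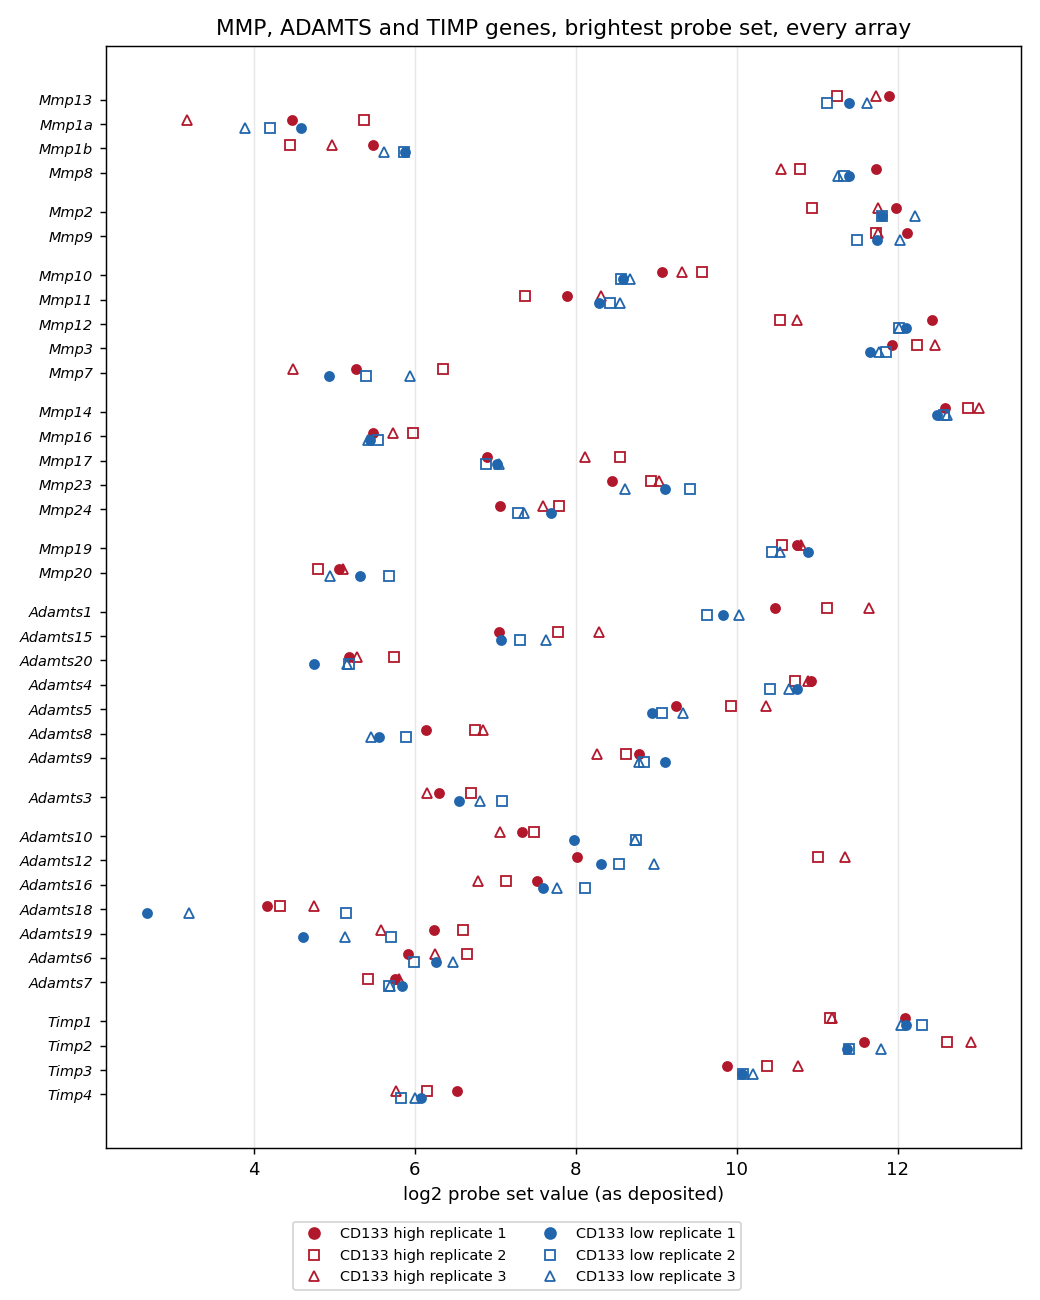
Log2 probe set values of the 37 members on every array (horizontal axis), by class from collagenases at the top to TIMPs at the bottom. Red symbols are CD133 high arrays and blue symbols CD133 low arrays; CD133 high replicate 1, the filled red circle, often sits with the blue symbols, as for Timp2, where it stands at 11.58 against 12.61 and 12.91 in the other CD133 high arrays.

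Among the inhibitors, Timp1 and Timp2 lay on opposite sides. Timp1 had log2 values of 12.09, 11.16 and 11.18 in CD133 high replicates 1, 2 and 3, against 12.10, 12.30 and 12.04 in the CD133 low arrays. Replicate 1 lay inside the CD133 low range and the other CD133 high arrays below it, so the fractions overlapped. The difference was −0.67 (SE 0.28, limma, adjusted p = 0.314), and without replicate 1 Timp1 fell by 0.98 (SE 0.12, adjusted p = 0.0063). TIMP-1 is a soluble inhibitor of most secreted MMPs and is often induced by growth factors and inflammation.

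Timp2, whose protein both inhibits MMPs and takes part in the activation of pro-MMP-2 at the cell surface, had 11.58, 12.61 and 12.91 in the CD133 high arrays, against 11.37, 11.39 and 11.79 in the CD133 low arrays. Replicate 1 lay within the CD133 low range and the other CD133 high arrays above it. The gene differed by 0.85 (SE 0.35, limma, adjusted p = 0.317), and without replicate 1 it rose by 1.24 (SE 0.18, adjusted p = 0.0099), a 2.36-fold difference. The 6 probe sets of Timp2 differed among themselves. The probe sets 1433662_s_at and 1450040_at differed by 0.77 and 0.91, in the direction of the brightest, 1454677_at, while 1460287_at and 1420924_at differed by −0.14 and −0.05. Without replicate 1, 1433662_s_at and 1450040_at gave 1.09 and 1.31 (limma, adjusted p = 0.0045 and 0.0076), and 1460287_at and 1420924_at gave −0.23 and −0.07 (adjusted p = 0.351 and 0.763).

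Timp3 encodes the inhibitor that is bound to the extracellular matrix and also blocks ADAM17 and several ADAMTS enzymes. Its brightest probe set, 1449335_at, had 9.88, 10.37 and 10.76 in the CD133 high arrays, against 10.07, 10.08 and 10.20 in the CD133 low arrays, with a difference of 0.22 (SE 0.23, limma, adjusted p = 0.631). The dimmest of the 4, 1419088_at, had 8.44, 11.07 and 11.58 against 7.92, 8.10 and 7.88. Here all CD133 high arrays were above all CD133 low arrays, replicate 1 by the least. It differed by 2.40 (SE 0.76, limma, adjusted p = 0.297), and by 3.36 (SE 0.18, adjusted p = 0.0012) without replicate 1. The probe sets 1449334_at and 1419089_at stood between, at 1.37 and 0.92, and at 2.00 and 1.63 without replicate 1 (limma, adjusted p = 0.003 and 0.0031), where the brightest gave 0.45 (adjusted p = 0.0772). All 4 are listed under the same transcript record, and where each lies on the transcript was not analysed here. The choice of probe set thus decided whether the difference of Timp3 was 0.22 or 2.40.

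**Figure D3:**
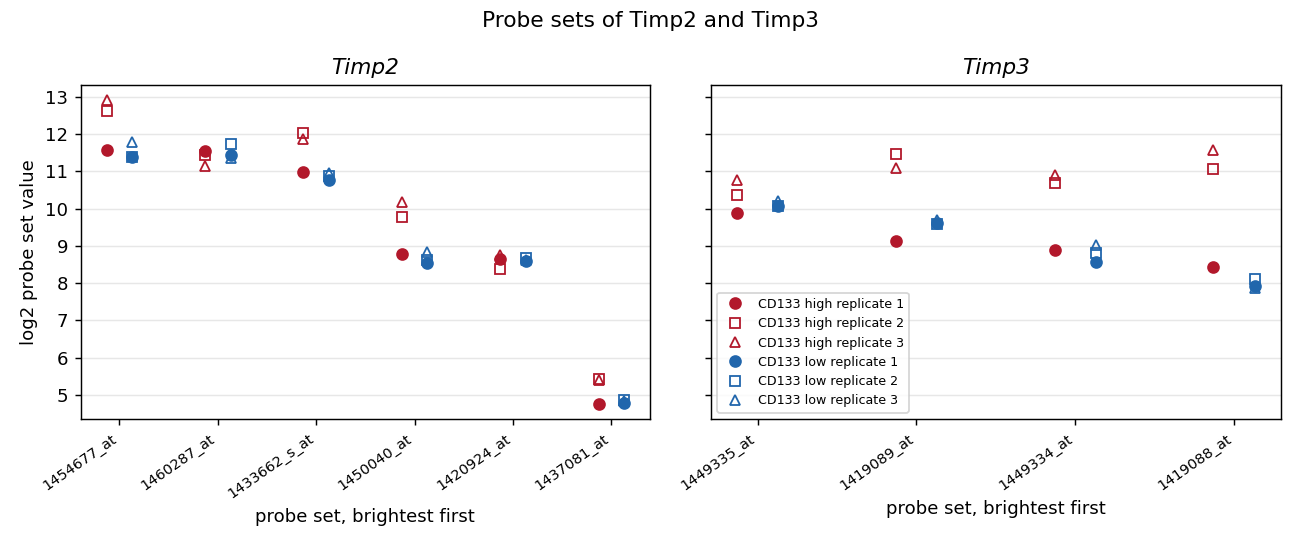
Log2 values of the 6 probe sets of Timp2 and the 4 of Timp3 (horizontal axis, brightest first) on each array, CD133 high in red left of CD133 low in blue. In Timp3 the gap between CD133 high replicates 2 and 3 and the CD133 low arrays widens from the brightest probe set to the dimmest, where replicates 2 and 3 reach 11.07 and 11.58 against 7.88 to 8.10.

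Timp4, the inhibitor best known from heart and adipose tissue, was dimmer, at 6.52, 6.15 and 5.76 in the CD133 high arrays and between 5.83 and 6.07 in the CD133 low arrays. The fractions overlapped, and the difference was 0.18 (SE 0.27, limma, adjusted p = 0.748), and −0.0067 without replicate 1.

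The gelatinases cut denatured collagen and the collagen of basement membranes. Mmp2, made mostly by fibroblasts in tumours, had 11.98, 10.94 and 11.76 in the CD133 high arrays, against 11.81, 11.81 and 12.21 in the CD133 low arrays. Mmp9, made by neutrophils, macrophages and some tumour cells, had 12.11, 11.73 and 11.76, against 11.74, 11.49 and 12.03. Both overlapped between the fractions, with differences of −0.38 (SE 0.29) for Mmp2 and 0.11 (SE 0.20) for Mmp9 (limma, adjusted p = 0.515 and 0.786). The other probe set of each gene had the opposite sign: 1416136_at of Mmp2 differed by 0.16 and 1448291_at of Mmp9 by −0.60. The values of Mmp2 without replicate 1 were −0.59 at the brightest probe set and 0.27 at the other (limma, adjusted p = 0.178 and 0.475). Without CD133 high replicate 1, 1448291_at of Mmp9 gave −1.09 (limma, adjusted p = 0.0097) and the brightest one −0.01 (adjusted p = 0.98).

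Mmp14, the membrane-bound enzyme that activates pro-MMP-2 together with TIMP-2, had 12.59, 12.87 and 13.01 in the CD133 high arrays, against 12.49, 12.57 and 12.61 in the CD133 low arrays. Replicate 1 lay just inside the CD133 low range, so the fractions overlapped. The difference of 0.27 (SE 0.17) had an adjusted p of 0.444 in limma, and was 0.38 (adjusted p = 0.0571) without replicate 1. Mmp17, another membrane-anchored enzyme, held by a lipid anchor, was named after its values were seen. It had 6.90, 8.54 and 8.11 in the CD133 high arrays and 7.02, 6.88 and 7.04 in the CD133 low arrays. It differed by 0.87 (limma, adjusted p = 0.344), and by 1.35 without replicate 1 (SE 0.18, adjusted p = 0.0088), whereas replicate 1 alone lay 0.08 below the CD133 low mean. The other 3 membrane-anchored members, Mmp16, Mmp23 and Mmp24, differed by −0.24 to 0.26.

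In the mouse 9 of the measured MMP genes lie in a run on chromosome 9, within 427.1 kb (GRCm38.p6, chr9:7272514-7699585), in the order Mmp13, Mmp12, Mmp1b, Mmp3, Mmp1a, Mmp10, Mmp8, Mmp20 and Mmp7. Of the 37 members 23 had a RefSeq promoter window (250 bases before to 50 after the annotated start, same build), among them all 9 genes of this run. The letters of the AP-1 site, TGANTCA on either strand, stood in the windows of 8 of these 9 genes and of 0 of the other 14 members, against 7.81% of 32851 mouse promoter windows. The TATA letters, TATAAA on the sense strand, stood in 8 of the 9, in 1 of the other 14 (Adamts1) and in 8.32% of all windows. A gene with several windows was counted if any of them held the letters, while the shares over all promoters are per window. Counted by window, 8 of the members' 26 windows (30.77%) held AP-1 letters and 9 (34.62%) held TATA letters. The AP-1 and TATA matches did not overlap each other. AP-1 dimers of Fos and Jun proteins are textbook activators of inducible MMP genes, but a match of letters is a description of the sequence and not a site shown to be used. The 100 bases before the annotated start are printed for genes with differences above 0 (Mmp10, Mmp3 and Mmp13) and below 0 (Mmp1b, Mmp12 and Mmp8). None of these differences passed with all arrays, and a link between sequence and difference was not tested. Mmp20, at −0.32, and Mmp1a and Mmp7 are not printed. The bases run 5′ to 3′ on the strand of the gene, with AP-1 and TATA letters in capitals.
Mmp10 (chr9:7502242-7502341, plus strand): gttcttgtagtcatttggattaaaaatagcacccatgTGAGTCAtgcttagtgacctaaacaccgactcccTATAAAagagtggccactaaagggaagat
Mmp3 (chr9:7445722-7445821, plus strand): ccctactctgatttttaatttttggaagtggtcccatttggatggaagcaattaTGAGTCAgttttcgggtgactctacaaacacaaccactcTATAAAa
Mmp13 (chr9:7272414-7272513, plus strand): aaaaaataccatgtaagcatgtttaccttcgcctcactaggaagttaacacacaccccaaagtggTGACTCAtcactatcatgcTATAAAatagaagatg
Mmp1b (chr9:7388027-7388126, minus strand): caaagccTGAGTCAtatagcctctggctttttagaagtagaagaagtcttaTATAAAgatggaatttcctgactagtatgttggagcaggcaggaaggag
Mmp12 (chr9:7347274-7347373, plus strand, the downstream of 2 annotated starts): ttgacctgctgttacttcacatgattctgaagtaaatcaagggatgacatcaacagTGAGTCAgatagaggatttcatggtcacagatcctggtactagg
Mmp8 (chr9:7558329-7558428, plus strand): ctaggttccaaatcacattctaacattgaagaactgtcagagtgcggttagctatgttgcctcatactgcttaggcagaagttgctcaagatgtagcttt

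In these windows the AP-1 letters begin 63 bases before the start in Mmp10, 46 in Mmp3, 35 in Mmp13, 93 in Mmp1b and 44 in Mmp12. The TATA letters follow the AP-1 letters by 34, 39, 19 and 44 bases in Mmp10, Mmp3, Mmp13 and Mmp1b, and by 48 in Mmp12, where they lie past the annotated start. The window at the upstream start of Mmp12 and that of Mmp8 hold neither.

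The stromelysins of the run had positive differences that did not pass with all arrays. Mmp10, or stromelysin 2, had 9.07, 9.56 and 9.32 in the CD133 high arrays, against 8.59, 8.56 and 8.68 in the CD133 low arrays. All CD133 high arrays were above all CD133 low arrays, including replicate 1. The difference was 0.71 (SE 0.17, 1.64-fold, limma, adjusted p = 0.252), and Mmp10 rose by 0.83 (SE 0.12, adjusted p = 0.0108) without replicate 1. Mmp3, or stromelysin 1, had 11.93, 12.24 and 12.46 against 11.65, 11.86 and 11.77, again without overlap. Its difference was 0.45 (SE 0.18, limma, adjusted p = 0.314), or 0.59 (SE 0.12, adjusted p = 0.0257) without replicate 1. Both enzymes cut a wide range of matrix proteins and can activate other pro-MMPs.

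Mmp12 and Mmp8, the enzymes best known from macrophages and neutrophils, were split within the CD133 high fraction and are named here after their values were seen. Mmp12, macrophage elastase, had 12.43, 10.54 and 10.75 in CD133 high replicates 1, 2 and 3, against 12.10, 12.02 and 12.02 in the CD133 low arrays. Replicate 1 was the highest array and replicates 2 and 3 the lowest. The difference was −0.81 (SE 0.48, limma, adjusted p = 0.413), and Mmp12 fell by 1.40 (SE 0.11, adjusted p = 0.0027) without replicate 1, while replicate 1 alone lay 0.38 above the CD133 low mean. Macrophage markers are given beside it: their summed level covered similar ranges in both fractions, as given above. Without replicate 1, 2 of the 12 rose and 3 fell, beside 11.7% and 14.6% of all genes. Of these markers Cd68 had 12.21, 10.93 and 10.97 against 12.06, 12.02 and 11.97, and Cd163 had 10.68, 11.53 and 12.06 against 9.90, 10.04 and 10.62. None of the 12 was listed at 0, and their part in the result was not tested.

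Mmp8, neutrophil collagenase, had 11.73, 10.79 and 10.55 in the CD133 high arrays, against 11.40, 11.33 and 11.26 in the CD133 low arrays. It differed by −0.31 (SE 0.30, limma, adjusted p = 0.613) and fell by 0.66 (SE 0.12, adjusted p = 0.0166) without replicate 1. The summed level of the 10 measured neutrophil markers (of 12 listed) ran the same way, at 15.88, 14.75 and 14.02 in CD133 high replicates 1, 2 and 3, against 15.42, 15.21 and 15.08 in the CD133 low arrays. Without replicate 1, 5 of the 10 fell and 0 rose, beside 14.6% and 11.7% of all genes. None of these markers was listed at 0 on any array. The part of these cells in the values of Mmp8 was not tested.

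The other collagenases were divided by level. Mmp13, the main interstitial collagenase of mice, was bright and stood at 11.89, 11.25 and 11.73 in the CD133 high arrays, against 11.40, 11.12 and 11.62 in the CD133 low arrays, with overlap and a difference of 0.24 (SE 0.23, limma, adjusted p = 0.591) that was 0.11 without replicate 1. Mmp1b was dim, at 5.48, 4.45 and 4.97 against 5.87, 5.87 and 5.61. Its arrays did not overlap, and it differed by −0.82 (SE 0.34, limma, adjusted p = 0.317), and by −1.07 (adjusted p = 0.0587) without replicate 1. Mmp1a and Mmp1b are closely related copies, so signal could be shared between them, and Mmp1a, which averaged below 5, differed by 0.11 (SE 0.59).

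**Figure D4:**
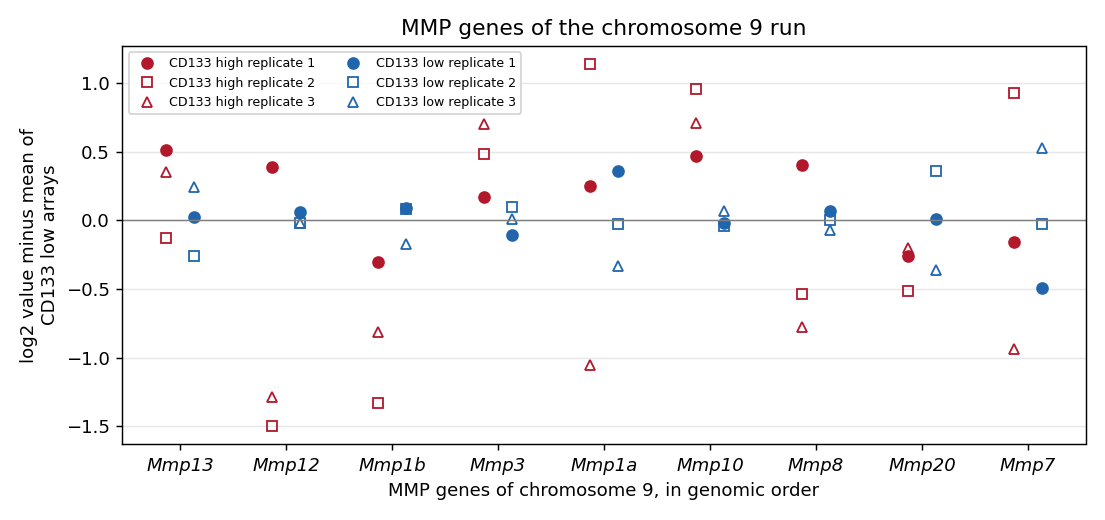
Log2 values of the 9 MMP genes of the chromosome 9 run minus the mean of the CD133 low arrays (vertical axis), in genomic order, with CD133 high arrays in red left of CD133 low arrays in blue. Mmp3 and Mmp10 lie above 0 on all 3 CD133 high arrays and Mmp1b and Mmp20 below 0, while in Mmp12 and Mmp8 replicate 1 lies above 0 and replicates 2 and 3 below it.

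Of the remaining MMPs none had an unadjusted p under 0.05. Mmp11, stromelysin 3, a gene typical of tumour fibroblasts, had the largest difference among them, −0.56 (SE 0.26, limma, adjusted p = 0.337), and −0.58 (adjusted p = 0.212) without replicate 1. Mmp19 differed by 0.08 (SE 0.17) at its brightest probe set and by −0.68 at the other, 1421976_at, which gave −1.04 (limma, adjusted p = 0.0248) without CD133 high replicate 1, where the brightest gave 0.06. Mmp7, matrilysin, differed by −0.06 (SE 0.53), with CD133 high values spread from 4.48 to 6.35. Mmp20, or enamelysin, an enzyme of tooth enamel, stood near the dim end of the array at means of 4.99 and 5.31 in the CD133 high and CD133 low fractions. Over the 18 MMP genes the median difference was 0.06, with 10 positive and 8 negative.

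Of the ADAMTS proteoglycanases 0 of 7 passed with all arrays (limma). At an unadjusted p under 0.05, 3 were higher and 0 lower, where 8.3% and 9.94% of all genes were. In 6 of the 7 the difference was positive, with a median of 0.38, where 9112 of all genes were positive and 9061 negative. Without CD133 high replicate 1, 3 of the 7 rose at their brightest probe sets and 0 fell, beside 11.7% and 14.6% of all genes. Adamts1, which cuts versican and aggrecan and is known for roles in ovulation and vessel growth, had 10.48, 11.12 and 11.64 in the CD133 high arrays, against 9.83, 9.63 and 10.03 in the CD133 low arrays. The fractions did not overlap, and replicate 1 was the lowest of the CD133 high arrays. The difference was 1.25 (SE 0.30, 2.38-fold, limma, adjusted p = 0.253), and without replicate 1 Adamts1 rose by 1.55 (SE 0.20, adjusted p = 0.0076). Adamts5, the main aggrecanase of mouse cartilage and the neighbour of Adamts1 on chromosome 16, had 9.24, 9.93 and 10.36 against 8.94, 9.07 and 9.33. Replicate 1 overlapped with the CD133 low arrays and the other CD133 high arrays lay above them. It differed by 0.73 (SE 0.29, limma, adjusted p = 0.311) and its brightest probe set, 1456404_at, rose by 1.03 (SE 0.18, adjusted p = 0.0171) without replicate 1. Adamts8, an inhibitor of vessel growth in culture, had 6.14, 6.74 and 6.84 against 5.55, 5.88 and 5.46. Its arrays did not overlap, with a difference of 0.94 (SE 0.28, limma, adjusted p = 0.297), and 1.16 (SE 0.24, adjusted p = 0.0259) without replicate 1.

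Other probe sets qualify 1 of these genes. For Adamts5 the dimmest of 4 probe sets, 1456969_at, had 3.09, 2.68 and 2.69 in the CD133 high arrays, against 4.43, 4.34 and 3.93, all in the dim range, and differed by −1.42, the reverse of the 3 brighter ones, at 0.30 to 0.73. Without replicate 1 it gave −1.55 (limma, adjusted p = 0.0418), opposite to the brightest, and the other 2 probe sets of Adamts5, 1422561_at and 1450658_at, gave 0.36 and 0.74 without passing (adjusted p = 0.477 and 0.0516). The rise of Adamts5 is thus that of 1 of its 4 probe sets, and its mean over all 4 differed by 0.0088 with all arrays. Adamts4, the other classical aggrecanase, had CD133 high and CD133 low means of 10.84 ± 0.11 and 10.60 ± 0.18 (SD, n = 3 arrays each), a difference of 0.24 (SE 0.15, limma, adjusted p = 0.447). Adamts15 and Adamts20 differed by 0.37 and 0.38, and by 0.70 and 0.49 without replicate 1 (adjusted p = 0.0977 and 0.331). Adamts9, a versican-cutting enzyme, was the exception to the direction at its brightest probe set, at 8.78, 8.63 and 8.27 against 9.11, 8.85 and 8.79. The difference was −0.36 (SE 0.19, limma, adjusted p = 0.376), and −0.47 (adjusted p = 0.105) without replicate 1. A nearly as bright probe set, 1437785_at, differed by −0.10, and by 0.23 (limma, adjusted p = 0.168) without replicate 1. Another probe set of Adamts9, 1430352_at, had the opposite sign, at 0.76, and 0.92 (limma, adjusted p = 0.084) without replicate 1.

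Among the remaining ADAMTS genes, Adamts10 had the largest difference below 0. This fibrillin-binding protease had 7.33, 7.48 and 7.06 in the CD133 high arrays, against 7.98, 8.75 and 8.73 in the CD133 low arrays. All CD133 high arrays, replicate 1 included, were below all CD133 low arrays. The difference was −1.20 (SE 0.26, limma, adjusted p = 0.211, the smallest among the members), and −1.22 (SE 0.29, adjusted p = 0.0366) without replicate 1. A dim second probe set of Adamts10, 1441309_at, differed by 0.16. Adamts12, a protease that cuts cartilage oligomeric matrix protein, was named after its values were seen. It had 8.02, 11.01 and 11.35 in CD133 high replicates 1, 2 and 3, against 8.32, 8.54 and 8.97. Replicate 1 was the lowest of all 6 arrays and the other CD133 high arrays were the highest. It differed by 1.52 (SE 0.83, limma, adjusted p = 0.388). Without replicate 1 it rose by 2.58 (SE 0.22, 5.96-fold, limma, adjusted p = 0.0033), the largest rise among the members' brightest probe sets. A dim second probe set of Adamts12, 1446666_at, differed by 0.55, and by 0.75 (limma, adjusted p = 0.369) without replicate 1.

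Adamts16 gave opposite results on its 2 probe sets. The brightest, 1441841_at, had 7.52, 7.13 and 6.78 in the CD133 high arrays, against 7.59, 8.11 and 7.76, and 1439604_at had 7.20, 7.92 and 8.28 against 6.94, 6.99 and 7.19. Neither overlapped between the fractions, the first being lower in the CD133 high arrays and the second higher. Without replicate 1 they gave −0.87 and 1.06 (limma, adjusted p = 0.0442 and 0.0155), so no direction is given for Adamts16. Adamts19 had 6.24, 6.60 and 5.58 against 4.61, 5.70 and 5.13, with overlap, and differed by 0.99 (SE 0.40, limma, adjusted p = 0.314), and by 0.94 (adjusted p = 0.214) without replicate 1. Adamts3, a procollagen N-proteinase, and Adamts6 and Adamts7 differed by −0.43, 0.03 and −0.08. The dimmer probe sets of Adamts3 and Adamts6, 1458143_at and 1437506_at, had the opposite sign, at 0.55 and −0.54. The dim Adamts18 differed by 0.73 (SE 0.67), and its dimmest probe set, 1444253_at, by 2.22 from means below 5. Over the 15 ADAMTS genes the median difference was 0.37, with 10 positive and 5 negative.

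In 19 members with more than 1 probe set, 18 of the 33 dimmer probe sets had the sign of the brightest and 15 the opposite sign.

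Other genes of pericellular proteolysis were read from the same fit, and 0 of their lists' genes passed with all arrays (limma). At an unadjusted p under 0.05, 7 were higher and 1 was lower, where 8.3% and 9.94% of all genes were. In the order below, the lists held 12, 20, 12, 7, 11 and 14 measured genes. In the plasminogen system (12 of 15 genes measured), Plau, the urokinase that makes plasmin, averaged 9.48 ± 0.43 in CD133 high and 8.38 ± 0.56 in CD133 low arrays, and its receptor Plaur 12.84 ± 0.07 and 12.25 ± 0.19 (SD over 3 arrays). Neither overlapped, and the differences were 1.10 and 0.59 (limma, adjusted p = 0.297 and 0.291). The prothrombin gene F2 and S100a10, a plasminogen-binding partner of annexin A2, differed by −0.74 and −0.40. Without replicate 1, 1 gene of this list rose (Plaur) and 4 fell, beside 11.7% and 14.6% of all genes.

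Among 20 measured activators, inhibitors and binding partners of MMPs, the broad protease inhibitor A2m differed by 0.85, the proprotein convertases Furin and Pcsk6 by 0.33 and 0.34 and Thbs2, a matricellular protein that clears MMP-2, by 0.81. Without replicate 1, 4 rose and 3 fell, beside 11.7% and 14.6% of all genes. Those that rose included Reck, a membrane-anchored MMP inhibitor (1.32), and those that fell included Lcn2, the partner of MMP-9 in neutrophils (−1.90), and Bsg, an inducer of MMPs (−0.94). Lcn2 is also in the neutrophil list. Of 12 ADAM genes, 9 differences were positive. Those with the smallest p were Adam9 at 0.61 (limma, adjusted p = 0.297), Adam23 at 0.48, Adam12 at 0.25 and Adam15 at 0.29. Of the 12 ADAM genes 2 rose and 1 fell without replicate 1, beside the same shares of all genes. Among the 7 ADAMTS-like genes, which lack the protease domain, Adamtsl1 and Adamtsl5 differed by 1.003 and 0.35 and Adamtsl4 by −0.60. Adamtsl2 differed by −1.92 from means under 5 and was listed at 0 on 1 array, CD133 high replicate 3. Without replicate 1, Adamtsl1 and Adamtsl3 rose, by 1.54 and 1.51, and Adamtsl4 fell by 0.9989 (limma, adjusted p = 0.0145, 0.0049 and 0.0076).

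Of 11 measured matrix genes that these enzymes cut or bind, 9 differences were positive. Acan, the aggrecan that Adamts4 and Adamts5 cut, had 10.84, 10.06 and 10.21 in the CD133 high arrays, against 9.63, 9.27 and 9.18 in the CD133 low arrays, a difference of 1.01 (SE 0.25, limma, adjusted p = 0.259). Eln, which encodes elastin, a substrate of Mmp12, differed by 1.41 (SE 0.54, adjusted p = 0.305), with 0.05 in replicate 1 alone. Fbn2 differed by 0.82 and Comp by −0.42. Without replicate 1, 3 of the 11 rose (Acan, Eln and Fbn2) and 0 fell, beside 11.7% and 14.6% of all genes. Among 14 measured regulators of MMP transcription, the ETS factor Etv4 differed by 0.76, Ets1 by −0.47, Rela by 0.28 and Fosb by 0.40 (limma, smallest adjusted p = 0.311). Of these 14 genes 2 rose and 0 fell without replicate 1, beside the same shares of all genes.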

How the data were processed

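The deposited table holds log2 probe set values, as judged from their range, of RNA labelled and hybridised to Affymetrix mouse arrays, per the labels' protocols. The method of probe summary and normalization was not stated by the authors in the sources used here. With 45101 probe sets the table is of a larger array than the labels' one. The 64 control probe sets were left out of the tests. Gene names came from the platform annotation, in which 34945 probe sets have 1 gene, 932 several and 9160 are unnamed here; RefSeq (GRCm38.p6) supplied positions and promoter windows.

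Fractions came from the sorting label, and replicates were numbered in accession order, which pairs no samples. One model over 45037 probe sets was fitted with limma 3.58.1 in R 4.3.3 (variance trend, two-sided, Benjamini-Hochberg, threshold 0.05), with no filter. Each difference is the CD133 high mean minus that of CD133 low (log2), with the model's standard error. With 3 arrays against 3 an exact permutation test cannot pass the threshold and was not used.

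The members and gene lists were chosen with earlier results of these data known. Values per array are given for the TIMPs, Mmp2, Mmp9, Mmp14, and members with an unadjusted p under 0.05 or a difference of at least 1 without overlap; of each pathway list up to 4 genes with the smallest p are named, and other names are said to be chosen after their values were seen or stand as examples. On simulated arrays with the spread of all 6, 2.99% of those shifted by 1 (log2), 43.3% of those by 2 and 68.2% of those by 3 were recovered, with 2 false calls among 45037 probe sets. A simulation using only the CD133 low spread recovered 41.8%, 73.1% and 86.4% and made 9 false calls. The shifted probe sets were drawn from those with a mean above 5. In both simulations every probe set varied independently. They hold no differences between whole arrays, such as those of the CD133 high arrays here, so their false calls do not cover these.

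The other settings tried were array scaling (quantiles, medians or 75th percentiles), filters on the dimmest 50% or 25%, values below 5 set to 5, other variance models, array weights, a threshold of 0.1, averaging all probe sets per gene, no probe sets of shared sequence, the hybridisation controls as a covariate, each array left out, and CD133 high replicate 1 alone.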

Additional observations from a re-analysis of the deposited data

How the results depend on the processing

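No paired analysis was possible because the labels number no replicates. Beside 82 probe sets past the threshold with all arrays (limma), the count was 164 with equal medians, 157 with equal 75th percentiles, 175 and 190 without the dimmest 50% and 25% of probe sets, 36 with values below 5 set to 5, 7 without a variance trend, 185 with a robust trend, 4808 with array weights, 195 at a threshold of 0.1 and 0 with CD133 high replicate 1 alone (4688 at an unadjusted p under 0.05). Leaving out 1 array gave 0 to 9603 probe sets, the 9603 without CD133 high replicate 1. Of the protease and inhibitor genes, 9 passed with array weights and 0 to 13 with 1 array left out, again with 13 without CD133 high replicate 1, and 0 under every other alternative.

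The median difference of the members was 0.11 with all arrays, 0.0187 when the hybridisation controls entered as covariate, and 0.0976 to 0.213 with 1 array left out. That of the MMP genes, 0.0617, was 0.023 with quantile normalization, 0.0142 with equal medians, 0.0033 with array weights, −0.0918 with the mean of each gene's probe sets, 0.0131 with the covariate, and −0.0928 to 0.135 with 1 array left out. That of the ADAMTS genes, 0.37, was 0.0187 with the covariate, 0.0163 with CD133 high replicate 1 alone, and 0.215 to 0.485 with 1 array left out.

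Signs turned as follows. With the covariate, Timp3 gave −0.14, Mmp2 0.17, Adamts12 −0.39, Mmp8 0.32, Mmp12 0.35 and Mmp17 −0.0512. With CD133 high replicate 1 alone, Timp3 gave −0.23, Mmp2 0.0354, Adamts12 −0.59, Mmp8 0.40, Mmp12 0.38 and Mmp17 −0.081. With the mean of the probe sets, Mmp9 gave −0.24 and Adamts16 0.0389. Without CD133 high replicate 1, Timp4 gave −0.0067 and Mmp9 −0.0088, and without CD133 low replicate 2, Mmp9 gave −0.019, within −0.019 to 0.253 over the arrays left out. None of these 17 values passed the threshold, and their causes were not tested. Timp1, Timp2, Mmp3, Mmp10, Mmp14, Mmp1b, Adamts1, Adamts5, Adamts8, Adamts10 and Adamts19 kept their sign under all alternatives that gave a value, though not their size. With the covariate Timp1 gave −0.148, Timp2 0.199, Mmp14 0.0624, Mmp3 0.181, Mmp1b −0.287, Adamts5 0.237 and Adamts8 0.457, and with the mean of the probe sets Adamts5 gave 0.0088, Timp2 0.452 and Adamts10 −0.521. With CD133 high replicate 1 alone, Timp1 gave −0.0584, Timp2 0.0661, Mmp14 0.0339, Adamts5 0.127 and Mmp3 0.168, while Adamts10 gave −1.155 and Adamts19 1.092. The arrays carry no depth, and for dim genes such as Mmp1a and Adamts18 the signal limits what can be seen.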
